A study of Mus musculus with 6 samples.

Results

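Stab2, Fcgr2b, F8 and Vwf are 4 of the 1834 mouse genes in a liver RNA sequencing table, and all 4 were lower in livers given a vector for Ly6d than in livers given a vector for green fluorescent protein. They were grouped by what their products do, as endothelial scavenger receptor and coagulation factor genes of the liver, and were chosen from earlier results of the same comparison. Their values are therefore given as a description and carry no test. The study compared 3 AAV-Ly6d libraries (genotype label Ly6d overexpression) with 3 AAV-GFP libraries (genotype label WT), all from liver of mice kept on the same diet. AAV is adeno-associated virus, a vector that carries a gene into liver cells, and both groups received one. Ly6d encodes a small membrane-anchored protein, and the series title places the work in metabolic dysfunction-associated steatotic liver disease. The sources used here do not give strain, sex, age, the diet itself, the vector dose or the promoter that drives each transgene, nor whether each library came from a separate animal. The spread between libraries may thus be partly technical.

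Liver sinusoids are lined by a fenestrated endothelium that takes up waste macromolecules from the blood. Stab2 encodes stabilin-2, an endocytic receptor of these cells that clears hyaluronan and other ligands. Fcgr2b encodes the inhibitory IgG Fc receptor, which in liver sits mainly on sinusoidal endothelium and binds small immune complexes; B cells and macrophages also make it. F8 encodes coagulation factor VIII, the cofactor of factor IXa, whose main source in the body is endothelium, in liver that of the sinusoids. Vwf encodes von Willebrand factor, the platelet-binding protein that carries factor VIII in plasma; endothelium of larger vessels and megakaryocytes are its known sources, so its membership in a sinusoidal group is less clear than that of the other genes.

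The genes lie on different chromosomes of GRCm38. Stab2 spans 86841198 to 87008025 of chromosome 10 (minus strand), with 69 exons in its longest coding transcript of 8228 bases. Fcgr2b spans 170958617 to 170976547 of chromosome 1 (minus strand), with 8 exons and 3544 bases. F8 spans 75172715 to 75382615 of chromosome X (minus strand), with 26 exons and 9784 bases. Vwf spans 125546774 to 125686679 of chromosome 6 (plus strand), with 52 exons and 8834 bases. Fcgr2b is the shortest of them and has a close relative, Fcgr3, which encodes an activating Fc receptor. Over 509 aligned coding bases the transcripts Fcgr2b-202 and Fcgr3-201 were 96.5% identical. Their longest identical run is shown here with 20 bases on each side, because reads that fall in it cannot be assigned to either gene by sequence. It lies in exons 3 and 4 of both genes, which on chromosome 1 (minus strand) is 170966654 to 170968101 for Fcgr2b and 171054147 to 171057812 for Fcgr3, with the intron between the exons. Capitals mark the bases that differ, and the 129 bases between them are the same in both genes.
Fcgr2b: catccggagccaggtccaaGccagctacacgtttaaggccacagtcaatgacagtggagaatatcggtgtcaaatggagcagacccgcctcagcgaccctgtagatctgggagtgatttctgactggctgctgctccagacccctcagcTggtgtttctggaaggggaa
Fcgr3: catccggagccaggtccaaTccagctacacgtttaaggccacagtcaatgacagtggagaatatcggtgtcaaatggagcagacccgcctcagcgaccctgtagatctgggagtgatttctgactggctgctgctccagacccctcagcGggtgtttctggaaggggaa
Of the 1413 stretches of 50 bases in Fcgr2b-202, 166 (11.8%) also occur in a transcript of another gene, and that gene is Fcgr3. In the longer Fcgr2b-201 the share is 436 of 3495 (12.5%), most of it with Cplx2 and Gm47409 (241 each). For F8 and Vwf it is 0 of 9735 and 0 of 8785. For Stab2 it is 96 of 8179 (1.17%), in the antisense gene Gm16268, whose exons share 141 bases with those of Stab2. The antisense gene Gm38204 shares 155 exonic bases with Fcgr2b. The sources used here do not give the strand setting of the authors' counting, so in those short overlaps sense and antisense reads cannot be told apart. How the authors treated reads that match several genes is not given either.

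The region upstream of Stab2 is shown because Stab2 was lower beside the other 3 genes and its promoter window in the RefSeq table (GRCm38.p6) reaches beyond the annotated transcripts. The printed part is chr10:87008039-87008192, minus strand, 154 bases. Capitals mark matches on either strand to GGAA, the core bound by ETS factors such as those of endothelium. They also mark TATATA, which resembles the box bound by the basal transcription machinery and was searched after the sequence had been seen.
Stab2 upstream: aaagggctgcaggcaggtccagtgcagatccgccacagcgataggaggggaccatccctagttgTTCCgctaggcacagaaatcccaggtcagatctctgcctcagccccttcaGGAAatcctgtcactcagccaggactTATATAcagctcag
In the whole 300-base windows of Stab2, Fcgr2b and F8 there were 6, 5 and 5 matches to GGAA, a motif found in 96.0% of the 32851 windows of the table. TATATA occurred 1 time in the Stab2 window and 0 times in those of Fcgr2b and F8, against 5.7% of all windows. AGATAA, which is bound by zinc finger factors of the GATA family, had 0 matches in these 3 windows and occurred in 11.2% of all windows. The motifs do not overlap each other in the printed part. The Fcgr2b and F8 windows reach little or not at all beyond the annotated transcripts and are not printed. Vwf was not matched.

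The deposited values are normalised read counts, reads divided by 1 factor per library. Summed over the 1834 genes, the recovered reads numbered between 3835101 and 4359932 in the AAV-Ly6d libraries and between 3248078 and 3448888 in the AAV-GFP libraries, which is part of each library's depth. Ly6d, the delivered gene, held 3181, 1799 and 3275 in AAV-Ly6d livers and 56.1, 9.68 and 182 in AAV-GFP livers, as the labels say. Across the 1780 genes that could be tested, limma called 43.9% at an adjusted p under 0.05, 28.0% as lower and 15.9% as higher in AAV-Ly6d. In 49.3% all 3 AAV-Ly6d libraries lay below all 3 AAV-GFP libraries. Ranked by p in DESeq2 on recovered reads, the genes came in nearly the order of the deposited rows (Spearman's rho 0.985 across 1780 genes), and the largest p was 0.069. Its genes seem to have been picked for differing between these libraries, which makes p-values adjusted within the table too small. On the deposited scale 36.2% of the called genes were higher in AAV-Ly6d, and 69.2% were once libraries had been rescaled to equal median ratios. The rescaling moved the median log2 change of all tested genes to -0.33, against -0.67 on the deposited scale. One AAV-GFP library, replicate 2, stood apart from the others. Apob, a very long hepatocyte transcript, took 20.1% of its summed values, against 4.49% to 6.41% in the other 5 libraries.

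The scavenger receptor gene Stab2 was expressed at about 40% of its AAV-GFP level. Stab2 reached normalised read counts of 489, 575 and 491 in the AAV-Ly6d livers and 1288, 1467 and 1095 in the AAV-GFP livers. The groups did not overlap, and the lowest AAV-GFP library held 1.90 times the highest AAV-Ly6d library. The means were 518 ± 49.2 in AAV-Ly6d and 1283 ± 186 in AAV-GFP (SD, n = 3 each), so that the AAV-Ly6d mean was 40.4% of the AAV-GFP mean. The log2 change on the log2(value + 1) scale was -1.30. These values rest on 1531 reads in AAV-Ly6d and 3992 reads in AAV-GFP. The spread between libraries was 9.49% of the mean in AAV-Ly6d and 14.5% in AAV-GFP, where counting alone would give 4.43% and 2.74%.

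Fcgr2b, the inhibitory Fc receptor gene, showed almost the same ratio. It held 445, 408 and 520 in AAV-Ly6d livers and 1314, 1079 and 1143 in AAV-GFP livers. All AAV-Ly6d libraries were lower than all AAV-GFP libraries, with at least 2.08 times as much in the lowest AAV-GFP library as in the highest AAV-Ly6d library. The means were 458 ± 57.2 in AAV-Ly6d and 1179 ± 121 in AAV-GFP (SD, n = 3 each), or 38.8% of the AAV-GFP mean, with a log2 change of -1.37. The reads behind them numbered 1345 in AAV-Ly6d and 3716 in AAV-GFP. The order of the AAV-GFP libraries was not that of Stab2: replicate 2 was the highest for Stab2 and the lowest for Fcgr2b.

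F8, the factor VIII gene, was lower by a larger factor and almost equal in the 3 AAV-Ly6d livers. It held 222, 215 and 226 in AAV-Ly6d and 792, 1193 and 723 in AAV-GFP. The groups were further apart than for the scavenger receptors, since the lowest AAV-GFP library held 3.20 times the highest AAV-Ly6d library. The means were 221 ± 5.54 in AAV-Ly6d and 903 ± 254 in AAV-GFP (SD, n = 3 each), or 24.5% of the AAV-GFP mean, with a log2 change of -1.99. The spread of 2.51% among the AAV-Ly6d libraries was below the 6.78% that counting 652 reads over the 3 libraries would give on average. In AAV-GFP the spread was 28.1%, with replicate 2 highest.

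Vwf, which encodes the carrier of factor VIII, had the lowest level and the widest spread. It held 77.8, 93.7 and 55.5 in AAV-Ly6d livers and 281, 638 and 205 in AAV-GFP livers. The groups did not overlap, but AAV-GFP replicate 2 held more than the other AAV-GFP libraries together. The means were 75.6 ± 19.2 in AAV-Ly6d and 375 ± 231 in AAV-GFP (SD, n = 3 each), or 20.2% of the AAV-GFP mean, with a log2 change of -2.15. A total of 225 reads in AAV-Ly6d and 1126 reads in AAV-GFP stood behind these values. The relative spread was 25.4% in AAV-Ly6d and 61.8% in AAV-GFP, against 11.6% and 5.16% from counting alone.

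**Figure D1:**
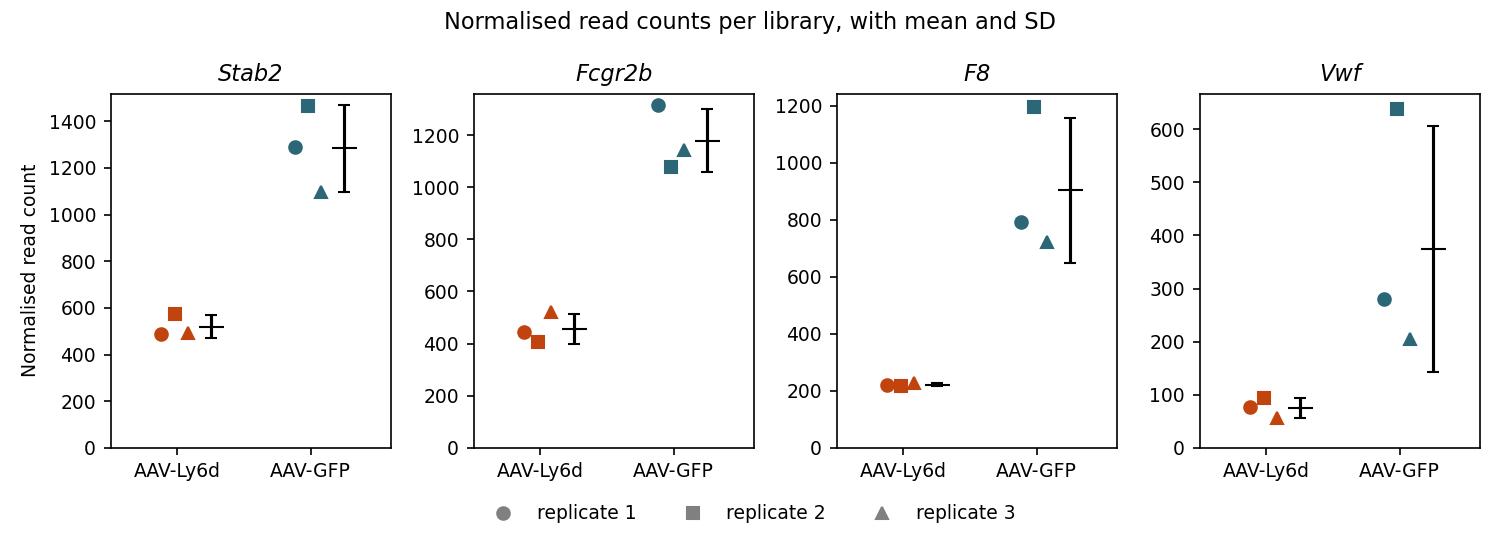
Normalised read counts (vertical axis, from 0) of Stab2, Fcgr2b, F8 and Vwf in each AAV-Ly6d and AAV-GFP library. Symbols mark the replicate number, and the bar with caps is the mean with its SD of 3 libraries. In each panel the AAV-Ly6d libraries lie below all AAV-GFP libraries, and AAV-GFP replicate 2 is the highest library for Stab2, F8 and Vwf and the lowest AAV-GFP library for Fcgr2b.

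All 4 genes had AAV-Ly6d libraries wholly below the AAV-GFP libraries. This stands beside the 49.3% of tested genes with the same separation, and nothing is read from it because the genes were chosen on this difference. Against the table, 22.3% of tested genes had a lower log2 change than Stab2, 20.1% than Fcgr2b, 8.09% than F8 and 5.67% than Vwf. Relative to the median of all tested genes, the log2 change was -0.63 for Stab2, -0.69 for Fcgr2b, -1.32 for F8 and -1.48 for Vwf. That median differed by transcript length. It was -0.85 among the 593 tested genes with the longest transcripts, which include Stab2, F8 and Vwf. Among the 593 of middle length, which include Fcgr2b, it was -0.665, and among the 593 with the shortest it was 0.56. All 4 log2 changes stayed negative under the median ratio and TMM scalings. With the median ratio they were -0.96, -1.02, -1.65 and -1.81 in the same order of genes. Both scalings take most genes as unchanged, but were estimated here from genes that seem to have been picked for differing. They therefore do not show which scaling is right.

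The position of AAV-GFP replicate 2 was related to transcript length, and the 4 genes differ in length. In that library, the 593 tested genes with the longest transcripts, 4764 bases or more, had a median log2 excess of 0.63 over the mean of the other AAV-GFP libraries. Among the 593 with the shortest, 2729 bases or fewer, the median was -0.22. The excess was 0.30 for Stab2, 0.66 for F8 and 1.41 for Vwf, all in the long group, and -0.18 for the shorter Fcgr2b. Without AAV-GFP replicate 2 the log2 changes were -1.20 for Stab2, -1.43 for Fcgr2b, -1.77 for F8 and -1.68 for Vwf, and the median over all tested genes was -0.41 in that fit. F8 and Vwf thus changed places in the order of the changes without it. Long transcripts were also lower in AAV-Ly6d across the table without that library, with a median log2 change of -0.63 in the long group and 0.42 in the short group. The part of transcript length in the values of the 4 genes was not tested. Of the 6 libraries that were left out in turn, none moved the log2 change of any of the 4 genes to a value outside -1.41 to -1.20 for Stab2, -1.46 to -1.29 for Fcgr2b, -2.13 to -1.77 for F8 and -2.50 to -1.68 for Vwf.

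**Figure D2:**
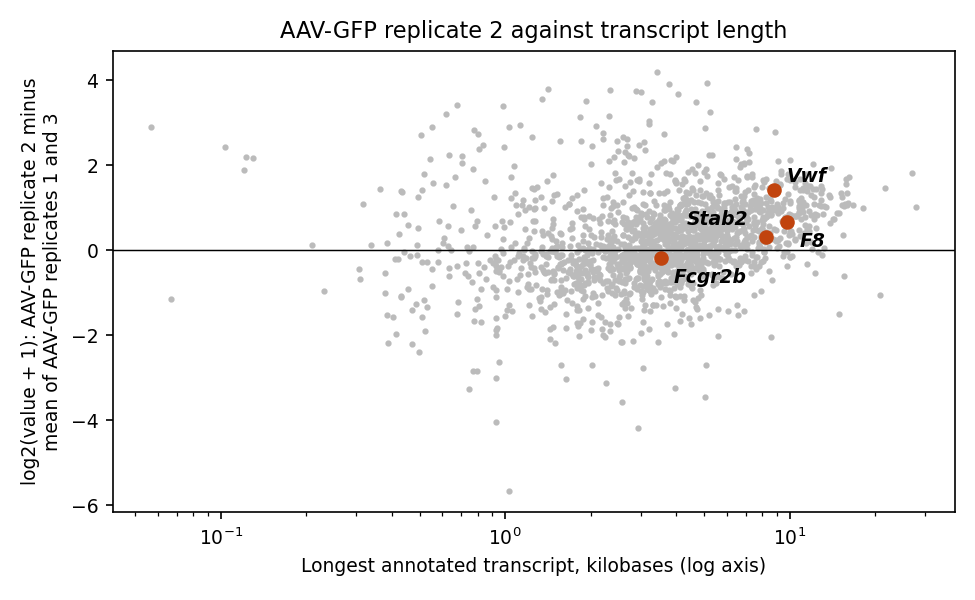
Each grey point is a tested gene, with the length of its longest annotated transcript in kilobases (horizontal log axis) and the difference in log2(value + 1) between AAV-GFP replicate 2 and the mean of AAV-GFP replicates 1 and 3 (vertical axis). Vwf at 1.41, F8 at 0.66 and Stab2 at 0.30 lie above 0 among the long transcripts, and Fcgr2b lies at -0.18.

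Levels of different genes can be compared only per length. Per kilobase of the longest coding transcript, Fcgr2b had 129 ± 16.2 normalised reads in AAV-Ly6d and 333 ± 34.2 in AAV-GFP (SD, n = 3 each). Stab2 came next with 63.0 ± 5.98 in AAV-Ly6d and 156 ± 22.6 in AAV-GFP. F8 followed with 22.6 ± 0.57 in AAV-Ly6d and 92.3 ± 25.9 in AAV-GFP, and Vwf was lowest with 8.56 ± 2.17 in AAV-Ly6d and 42.4 ± 26.2 in AAV-GFP. This order was the same in each of the 6 libraries and in both groups. In AAV-Ly6d the libraries of neighbouring genes did not overlap. In AAV-GFP the lowest F8 value, 73.9 per kilobase, and the highest Vwf value, 72.2 per kilobase, were nearly equal but came from different libraries. Within AAV-GFP replicates 1, 2 and 3, F8 had 81.0, 122 and 73.9 per kilobase and Vwf had 31.8, 72.2 and 23.2. With the 1462 bases of the shorter transcript Fcgr2b-202, the Fcgr2b level was 313 ± 39.2 in AAV-Ly6d and 806 ± 83.0 in AAV-GFP, and its place was the same.

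**Figure D3:**
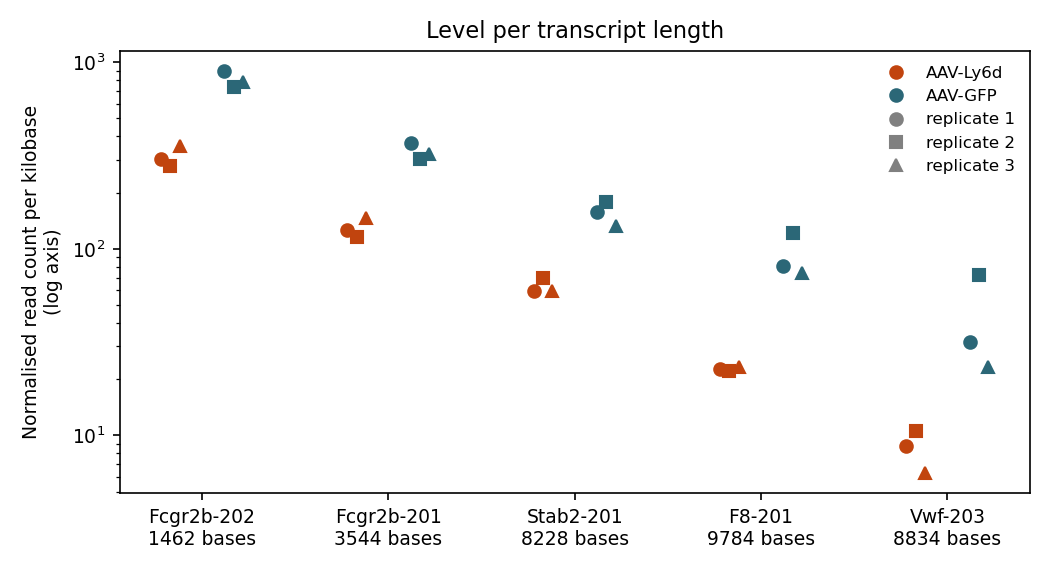
Normalised read count per kilobase of the named transcript (vertical log axis) in each library, with AAV-Ly6d left of AAV-GFP for each transcript. Fcgr2b, shown with 2 transcript lengths, is the highest and Vwf the lowest in both groups.

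Because the genes share libraries, their ratios within a library hardly depend on the scaling of that library. They do not remove the relation to transcript length described above, whose part in them was not tested. The log2 difference of F8 from Stab2 was -1.14, -1.41 and -1.11 in the AAV-Ly6d livers and -0.70, -0.30 and -0.60 in the AAV-GFP livers. F8 was thus lower relative to Stab2 in every AAV-Ly6d library than in any AAV-GFP library, and the same held for F8 against Fcgr2b. Vwf relative to Stab2 was -2.64, -2.60 and -3.12 in AAV-Ly6d and -2.19, -1.20 and -2.41 in AAV-GFP, again without overlap. Fcgr2b relative to Stab2 was -0.14, -0.50 and 0.08 in AAV-Ly6d and 0.03, -0.44 and 0.06 in AAV-GFP, where the groups overlapped. The pair Vwf and F8 overlapped as well, with mean differences of -1.57 ± 0.41 in AAV-Ly6d and -1.40 ± 0.46 in AAV-GFP (SD, n = 3 each). Vwf relative to Fcgr2b was -2.50, -2.11 and -3.21 in AAV-Ly6d and -2.22, -0.76 and -2.47 in AAV-GFP, and these groups overlapped too. Thus 3 of the 6 pairs separated the groups, and Vwf separated from Stab2 but not from Fcgr2b. How many other gene pairs do so was not counted. Nothing is read from these separations, because the genes were chosen on the difference between these groups.

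Other endothelial genes were lower in the AAV-Ly6d livers too. Of 47 listed sinusoidal, pan-endothelial and large vessel markers other than the 4 genes, 20 were tested, of which 18 fell and Efnb2 did not pass. The remaining one, Bmx, entered the test through its AAV-Ly6d libraries alone, so its direction was fixed by the filter on low values and is not counted as a result. The median log2 change of the 20 in limma, Bmx included, was -1.28, against -0.67 over all tested genes, of which 28.0% were called lower. All 10 tested sinusoidal markers, of 15 listed besides the 4 genes, fell in limma on the deposited scale. After the median ratio rescaling 5 of the 10 fell. The edgeR test called 7 of them as lower, both with TMM factors and with the deposited factors. Over all 20 markers limma after the rescaling called 13 as lower, and edgeR with either set of factors called 15. Among them were Stab1, which encodes the sister receptor stabilin-1 (log2 change -1.51, adjusted p = 0.0287 in limma), and Mrc1, the mannose receptor gene (-1.06, adjusted p = 0.0324). Bmp2, an endothelial signal that acts on hepatocyte iron regulation, fell by 1.47 on the log2 scale. The Wnt ligand genes Wnt2 and Wnt9b had log2 changes of -2.28 and -1.96, with 4 reads each in AAV-Ly6d replicate 2. Without that library their log2 changes were -1.30 and -1.42. Neither passed in limma when any single library was left out. Ehd3, an endocytic recycling gene, and Maf, a transcription factor gene, fell least, with -0.85 and -0.63. All 8 tested pan-endothelial markers, of 18 listed, fell, from Kdr, the VEGF receptor 2 gene (-1.88), to Mmrn2 (-1.13). They were also all called as lower after the median ratio rescaling and with edgeR and TMM factors. The deposited genes seem to have been picked for differing, so these counts say nothing about listed markers that were not tested.

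Bmx, a kinase gene listed with large vessel endothelium, held 15 reads in AAV-Ly6d and 0 reads in AAV-GFP. No fold is read from so few reads of a gene that entered through AAV-Ly6d alone. Efnb2, an arterial ephrin gene, had a log2 change of -1.24 (adjusted p = 0.0524 in limma). With 2 of 14 large vessel markers other than Vwf tested, these data say little about that vessel class. The lists were written with earlier results of these data known, so the counts are not independent support for a direction. The summed level of the 10 sinusoidal markers ranged over 3131 to 3888 in AAV-Ly6d and 6569 to 7729 in AAV-GFP. For the 8 pan-endothelial markers it was 1555 to 2069 in AAV-Ly6d and 4515 to 7797 in AAV-GFP. In bulk liver RNA, fewer endothelial cells and less RNA of these genes per cell cannot be told apart.

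The counts of called endothelial markers depended on single libraries more than the values did. When an AAV-Ly6d library was left out, 19 of the 20 markers could be tested. Limma then called 0 with replicate 1 left out, 11 with replicate 2 left out and 1 with replicate 3 left out. When an AAV-GFP library was left out, all 20 were tested, and 7, 16 (Bmx included) and 9 were called with replicates 1, 2 and 3 left out in turn. In the fit without AAV-Ly6d replicate 1, 0 genes of the whole table were called and 773 had an unadjusted p under 0.05. The median log2 change of the endothelial markers stayed between -1.39 and -1.26 over these 6 fits. The edgeR quasi-likelihood test on the recovered reads called 16 of the 20, and DESeq2 called 20, Bmx included in both.

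**Figure D4:**
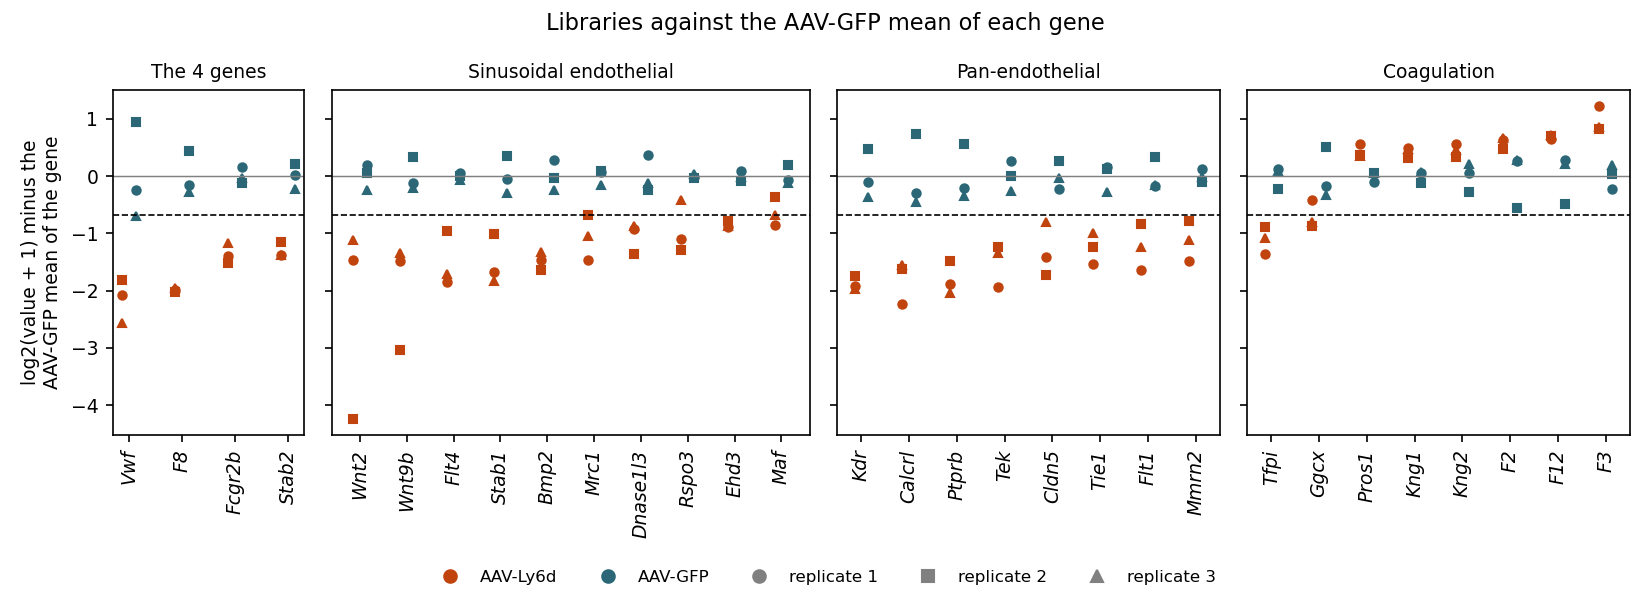
Log2(value + 1) of each library minus the gene's AAV-GFP mean (vertical axis) for the 4 genes and for the tested members of 3 lists, AAV-Ly6d left of AAV-GFP for each gene. The dashed line is the median log2 change of all tested genes, -0.67. All AAV-Ly6d points of the sinusoidal and pan-endothelial markers lie below 0, and the coagulation genes lie on both sides of 0.

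Set against 8 pan-endothelial markers of the same library, F8 and Vwf had lower means in AAV-Ly6d, and Stab2 and Fcgr2b had slightly higher means. The groups overlapped for Stab2, Fcgr2b and Vwf. The reference was the mean log2(value + 1) of Tie1, Tek, Kdr, Flt1, Ptprb, Calcrl, Cldn5 and Mmrn2, which was 7.33 ± 0.23 in AAV-Ly6d and 8.82 ± 0.28 in AAV-GFP (SD, n = 3 each). Stab2 exceeded it by 1.872, 1.683 and 1.501 in the AAV-Ly6d livers and by 1.569, 1.400 and 1.519 in the AAV-GFP livers. Fcgr2b exceeded it by 1.738, 1.188 and 1.585 in the AAV-Ly6d livers and by 1.598, 0.958 and 1.581 in the AAV-GFP livers. F8 exceeded it by 0.73, 0.27 and 0.39 in the AAV-Ly6d livers and by 0.87, 1.10 and 0.92 in the AAV-GFP livers, without overlap. Vwf was at -1.10 ± 0.46 in AAV-Ly6d and -0.44 ± 0.57 in AAV-GFP, with overlap. The difference between groups was 0.19 for Stab2, 0.12 for Fcgr2b, -0.50 for F8 and -0.66 for Vwf. The reference markers themselves had log2 changes from -1.88 (Kdr) to -1.13 (Mmrn2). How many other genes separate the groups against this reference was not counted, so nothing is read from the separation of F8. Differences in transcript length between the genes and the reference markers remain in these values, and their part was not tested.

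**Figure D5:**
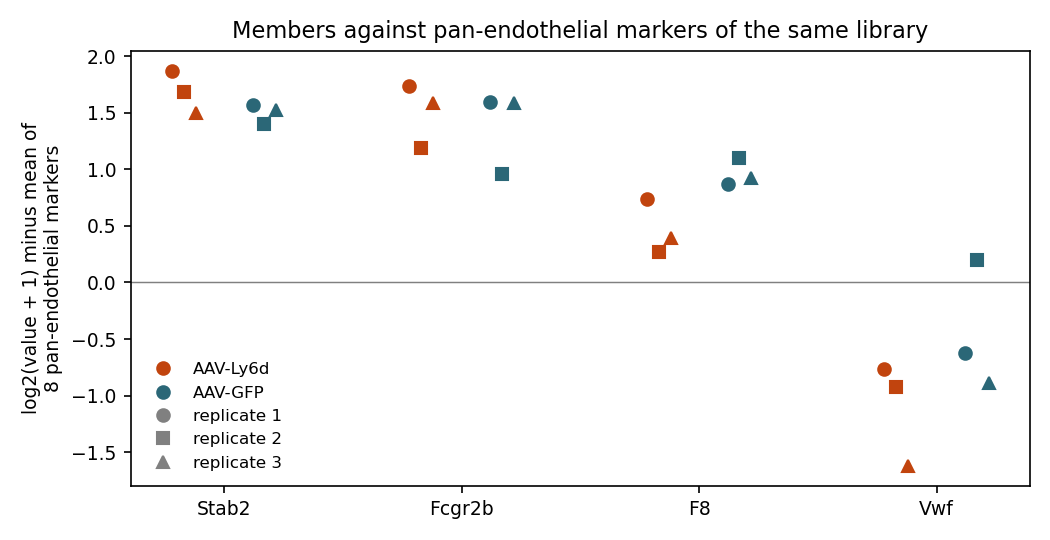
Log2(value + 1) of each gene minus the mean of 8 pan-endothelial markers in the same library (vertical axis), AAV-Ly6d left of AAV-GFP, with symbols for the replicate number. Among the genes shown, only F8 has groups that do not overlap.

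Other clotting genes were called in both directions. Of 37 listed coagulation, anticoagulation and fibrinolysis genes other than these, 8 were tested, of which 2 rose, 1 fell and 5 did not pass, beside 15.9% called higher and 28.0% called lower over all tested genes. Their median log2 change was 0.44, against -0.67 over all tested genes. Tfpi, the tissue factor pathway inhibitor gene, which endothelium expresses, fell, with 73.3 ± 11.7 in AAV-Ly6d and 159 ± 20.8 in AAV-GFP (SD, n = 3 each) and a log2 change of -1.11 (adjusted p = 0.0345 in limma). F3, the tissue factor gene, rose by 0.97 at a low level, 59.1 ± 9.49 in AAV-Ly6d and 29.7 ± 4.32 in AAV-GFP. F12, the hepatocyte gene of factor XII, rose by 0.69 (adjusted p = 0.0473 in limma). The hepatocyte genes F2, which encodes prothrombin, Kng1 and Kng2, the kininogens, and Pros1, which encodes protein S, did not pass, with log2 changes of 0.58, 0.43, 0.45 and 0.43. Ggcx, the vitamin K-dependent carboxylase gene, did not pass either, at -0.70. Kng1 and Kng2 are close copies whose reads may be shared. Without AAV-GFP replicate 2, 3 of the 8 rose and 1 fell, and 0 passed when any of the other 5 libraries was the one left out. After the median ratio rescaling 4 rose and 0 fell, and with edgeR and TMM factors 5 rose and 1 fell. With the deposited factors 0 rose and 1 fell in edgeR, and 4 rose and 2 fell in DESeq2. The number of called rises thus depended on the scaling and on the test.

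Genes whose products handle factor VIII and von Willebrand factor were few. Of 18 listed partners 2 were tested and neither passed in limma on the deposited scale. Mcfd2 passed as higher after the median ratio rescaling and with edgeR and TMM factors. It also passed as higher in DESeq2 with the deposited factors (adjusted p = 0.0381 in DESeq2). Mcfd2, part of the cargo receptor that exports factor VIII from the endoplasmic reticulum, had 3999 ± 115 in AAV-Ly6d and 2923 ± 389 in AAV-GFP (SD, n = 3 each), a log2 change of 0.46. Lrp1, a hepatocyte and macrophage receptor that clears factor VIII, had 17464 ± 5162 in AAV-Ly6d and 27462 ± 10479 in AAV-GFP, a log2 change of -0.63, with overlapping groups. Among scavenger receptors other than Stab2, 6 of 17 were tested and 4 fell, with a median log2 change of -1.03, beside 28.0% called lower and a median of -0.67 over all tested genes. Beside Stab1 and Mrc1 these were the lipid scavenger gene Cd36 (-1.34) and the macrophage scavenger gene Msr1, with 152 ± 22.2 in AAV-Ly6d and 309 ± 60.0 in AAV-GFP. Scara5, a ferritin receptor gene, did not pass and rested on 1 library, with 1250, 183 and 42.4 in AAV-Ly6d and 14.5, 15.1 and 70.9 in AAV-GFP (adjusted p = 0.0551 in limma); it passed, as higher, after the median ratio rescaling and in edgeR and DESeq2. Of the AAV-Ly6d libraries, leaving out replicates 1, 2 and 3 in turn left 0, 2 and 0 of these receptors called as lower, and of the AAV-GFP libraries 2, 4 and 3. For hyaluronan, the ligand of stabilin-2, 1 of 11 other listed symbols was tested, and the list holds both Cemip2 and its older name Tmem2. Cemip2 encodes a cell surface hyaluronidase. It fell, with 178 ± 53.8 in AAV-Ly6d and 394 ± 47.3 in AAV-GFP, a log2 change of -1.17 (adjusted p = 0.0324 in limma). It passed in the fits that left out replicate 2 of either group, and its adjusted p lay between 0.0536 and 0.0993 in the other leave-one-out fits.

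Markers of other cell types moved as well. Over all tested genes 28.0% were called lower and 15.9% higher. Of 7 tested stellate cell markers 5 fell and 2 did not pass, with a median log2 change of -1.48, and their summed level ranged over 1037 to 2299 in AAV-Ly6d and 3386 to 4932 in AAV-GFP. Of 5 tested hepatocyte markers 3 rose, Hnf4a (0.65), Apoa1 (1.12) and Tat (1.19), and 2 did not pass, with summed levels of 421017 to 454933 in AAV-Ly6d and 331782 to 835348 in AAV-GFP, where Apob of replicate 2 sets the upper end. For stellate markers, leaving out AAV-Ly6d replicates 1, 2 and 3 in turn left 0, 5 and 0 called as lower, and AAV-GFP replicates 3, 4 and 3. For hepatocyte markers 3 were called as higher with AAV-GFP replicate 2 left out, and 0 in each of the other 5 such fits. Sox9, the 1 cholangiocyte marker tested, rose by 1.38 and passed in the fits that left out AAV-GFP replicate 2 or 3, not in the other 4 such fits. Of the listed markers of Kupffer cells (13), B cells (6) and platelets and megakaryocytes (9), which can also carry Fcgr2b or Vwf, 0 were analysed here, as were 0 of 9 genes of other Fc gamma receptors and their partners. The part of these cell types in the values of Fcgr2b and Vwf was not tested.

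The genes with the most similar pattern over the 6 libraries were found by the root mean square distance between log2(value + 1) profiles centred on each gene's mean. The mean profile of the 4 genes was compared with 1319 tested genes that had a symbol and a mean value of at least 50. Nearest was Pcdh12, a protocadherin gene, at a distance of 0.08, with means of 52.8 in AAV-Ly6d and 163 in AAV-GFP. Kdr followed at 0.11, Ptprb, a receptor tyrosine phosphatase gene, at 0.17, Npr1, a natriuretic peptide receptor gene, at 0.18 and Adgrf5, an adhesion receptor gene, at 0.19. The median distance over all compared genes was 0.70. Of the 4 genes themselves F8 lay nearest to their mean profile (0.16), then Stab2 (0.22), Fcgr2b (0.33) and Vwf (0.41). Between pairs the smallest distances were 0.24 for Stab2 and Fcgr2b and 0.37 for F8 and Vwf, and the largest was 0.74 for Fcgr2b and Vwf.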

How the data were processed

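Liver RNA of 3 AAV-Ly6d and 3 AAV-GFP libraries was sequenced with standard Illumina libraries, per the labels' protocols. The submitters' processing notes name Bowtie 0.12.2 and mm10; the sources used here do not give the counter, its annotation or the normalisation tool. Values were deposited as normalised read counts, treated as a signal that is never negative. In each deposited column 100% of values were whole multiples of 1 step (tolerance 0.001), the form of counts that the authors divided by a size factor, so whole reads were recovered. Count tests on these reads were added after seeing the data: edgeR 4.0.16 called 465 genes with the deposited factors and DESeq2 1.42.0 called 1338; AAV-Ly6d replicate 2 has a step close to 1. Symbols (1833 of 1834), coordinates and lengths come from GENCODE M21 (GRCm38), promoters from RefSeq.

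Tests used limma 3.58.1 (R 4.3.3) on log2(value + 1) with a mean-variance trend, over the 1780 genes that reached 1 in 3 or more libraries. The fit was checked on simulated counts without the gene selection and length pattern of these data, so that check does not cover the calls here. "Rose" and "fell" mean a Benjamini-Hochberg adjusted p under 0.05, except for the 4 genes, which carry no test. The members and lists were chosen with earlier results of these data known. Named are the 4 genes, Ly6d, list genes in the table (1 is not reported here and is left out of its list's counts) and the 5 genes of nearest profile. Replicate numbers did not pair the libraries.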

Additional observations from a re-analysis of the deposited data

How the results depend on the processing

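The log2 changes of Stab2, Fcgr2b, F8 and Vwf kept their sign in all alternatives run. After rescaling by the median ratio they were -0.96 for Stab2, -1.02 for Fcgr2b and -1.65 for F8, and with edgeR and TMM factors -1.02 for Stab2 and -1.08 for Fcgr2b. Leaving out single libraries gave between 0 and 607 called genes in the table, against 782 with all, and between 0 and 16 called endothelial markers, against 19, with Bmx in both of the higher counts. The libraries share replicate numbers only (same-number correlations of deviations -0.02, -0.05 and -0.06 across tested genes, and no library correlated best with its own number). With the replicate number as a block limma called 48 genes and 4 endothelial markers. On recovered reads edgeR with the deposited factors called 465 genes and DESeq2 1338. The causes were not tested. With 3 libraries a group, values of Vwf are the least precise.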
